A study of Drosophila melanogaster with 2 samples.

Results

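The autophagy genes and the genes of the vacuolar proton pump were examined for regions bound by Crg-1, a transcription factor of the forkhead family, in whole adult Drosophila melanogaster. They were taken as the protein-coding genes whose symbol in the Ensembl annotation begins with Atg and a digit, or with Vha. The rule gave 20 Atg and 33 Vha genes, 53 of the 13945 protein-coding genes on the 6 chromosome arms. These families and the groups within them were picked with earlier region calls of the same data known, so their counts are descriptions, and no test is attached to them. The chromatin came from a transgenic line in which Crg-1 carried GFP at its C terminus, and it was precipitated with an antibody against GFP after sonication to 200 to 800 bp. Males and females were pooled, and the age of the adults is unknown. There was 1 group of 2 biological replicates, numbered 2 and 3, which share a donor label. The replicate lists were called against 1 control alignment common to both, and no untagged sample was analysed here. In whole flies a region sums over all tissues, so strong binding in few cells and weak binding in many cannot be told apart.

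Autophagy encloses cytoplasm in a double membrane, the autophagosome, which then fuses with the lysosome. The Atg proteins start this membrane, supply it with lipid, and attach the small protein Atg8 to it through a set of enzymes that resemble those of ubiquitin. The vacuolar proton pump, or V-ATPase, acidifies the lysosome and other compartments: its V1 sector on the cytosolic side burns ATP, and its membrane sector, Vo, carries the protons. In flies several of its subunits are encoded both by a gene used in most tissues and by paralogues used in the testis or in other limited tissues. These are called general and tissue-limited here, from knowledge of the fly pump and not from these data.

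The deposited files consist of 3707 regions in a thresholded set, selected by the authors from the replicates, and of 30000 regions each for replicate 2, replicate 3 and both pooled. Each region has a summit and a signal in the authors' own units, and read depth is unknown. Signal is therefore compared only within a list, and replicates are set side by side by rank. A gene was said to have a region when a thresholded summit lay within 500 bp of one of its annotated start sites. The 3707 strongest regions of each replicate are called top-ranked, to match the size of the thresholded set. Replicate ranks given for a gene are those of its best summit near any of its start sites, and at all 22 members with a thresholded region that best region overlapped it, except at Atg8a in replicate 3.

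The sequences under 5 strong summits are shown as examples of the bound DNA. Vha36-1 and Vha44, which also had strong regions, are not among them. Each is the 101 bases around the summit on the strand of the named gene, 5′ to 3′, from the RefSeq Release 6 genome, and the summit is its middle base. Capitals mark the annotated start site of a coding gene where the window holds one. At Vha55 (chr3R:12627781-12627881, minus strand) the start site of Vha55 itself lies 2 bp from the summit. At Atg18a (chr3L:8186845-8186945, plus strand) the capital is the Atg18a start. At Atg2 (chr3L:2774007-2774107, plus strand) it is the start of the opposite gene CG12093, at base 1. The windows at Vha100-2 (chr3R:18397178-18397278, minus strand) and Atg17 (chr3R:5669415-5669515, plus strand) hold no coding start. The Atg17 summit lies 248 bp upstream of the gene. The Vha100-2 summit lies 300 bp upstream of the nearer of its 2 start sites, and so in an intron of the longer transcript as well as in the 5′ UTR of Vti1b.
Vha100-2: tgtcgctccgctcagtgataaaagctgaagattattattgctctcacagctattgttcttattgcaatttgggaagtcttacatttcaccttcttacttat
Atg17: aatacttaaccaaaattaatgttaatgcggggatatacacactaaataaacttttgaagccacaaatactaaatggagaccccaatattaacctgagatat
Atg2: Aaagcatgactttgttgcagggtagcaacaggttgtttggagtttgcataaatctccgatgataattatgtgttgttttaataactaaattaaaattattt
Vha55: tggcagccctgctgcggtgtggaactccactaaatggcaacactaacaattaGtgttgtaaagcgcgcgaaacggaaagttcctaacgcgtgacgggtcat
Atg18a: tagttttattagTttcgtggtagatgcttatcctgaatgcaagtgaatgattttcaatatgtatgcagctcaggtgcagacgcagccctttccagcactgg

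A second set of windows, cut in the same way, shows the exceptions. Among the tissue-limited pump genes, VhaM9.7-c (chr3L:4186836-4186936, minus strand) and Vha16-5 (chr2L:10737254-10737354, minus strand) were those with a region. The capital is the VhaM9.7-c start in the former and the start of the opposite gene CG12299 in the latter.
VhaM9.7-c: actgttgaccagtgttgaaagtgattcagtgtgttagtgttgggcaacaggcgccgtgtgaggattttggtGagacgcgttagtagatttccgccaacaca
Vha16-5: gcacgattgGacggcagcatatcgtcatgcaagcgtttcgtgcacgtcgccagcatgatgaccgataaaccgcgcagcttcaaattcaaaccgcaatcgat
Atg6 (chr3R:24050768-24050868, minus strand) and VhaM9.7-b (chr3L:21539511-21539611, plus strand) were the members whose window holds the forkhead core TAAACA. In these windows capitals mark that core, which here lies on the opposite strand and so reads as its reverse complement.
Atg6: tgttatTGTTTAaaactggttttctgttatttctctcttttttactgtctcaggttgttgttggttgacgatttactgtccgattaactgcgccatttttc
VhaM9.7-b: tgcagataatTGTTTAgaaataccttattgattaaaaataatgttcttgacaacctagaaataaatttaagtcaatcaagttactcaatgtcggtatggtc

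Of the 53 genes, 22 (41.5%) had a thresholded region at a start site, and the share among all protein-coding genes was 22.9% (3195 genes). The Atg genes with a region were 11 of 20 (55%), and the Vha genes 11 of 33 (33.3%). The Vha genes fell apart by class. Among the general ones 9 of 15 (60%) had a region, and among the tissue-limited ones 2 of 18 (11.1%). In the pooled list, which runs down to weak candidates, 15 of 20 Atg genes and all 15 general Vha genes had a summit in that range, beside 8 of 18 tissue-limited genes (44.4%) and 57.6% of all protein-coding genes. The median signal of the strongest promoter region was 236 over the 11 Atg genes, 209.6 over the 11 Vha genes and 182 over the 3195 genes. The families thus held both strongly bound promoters and promoters with no candidate at all.

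**Figure D1:**
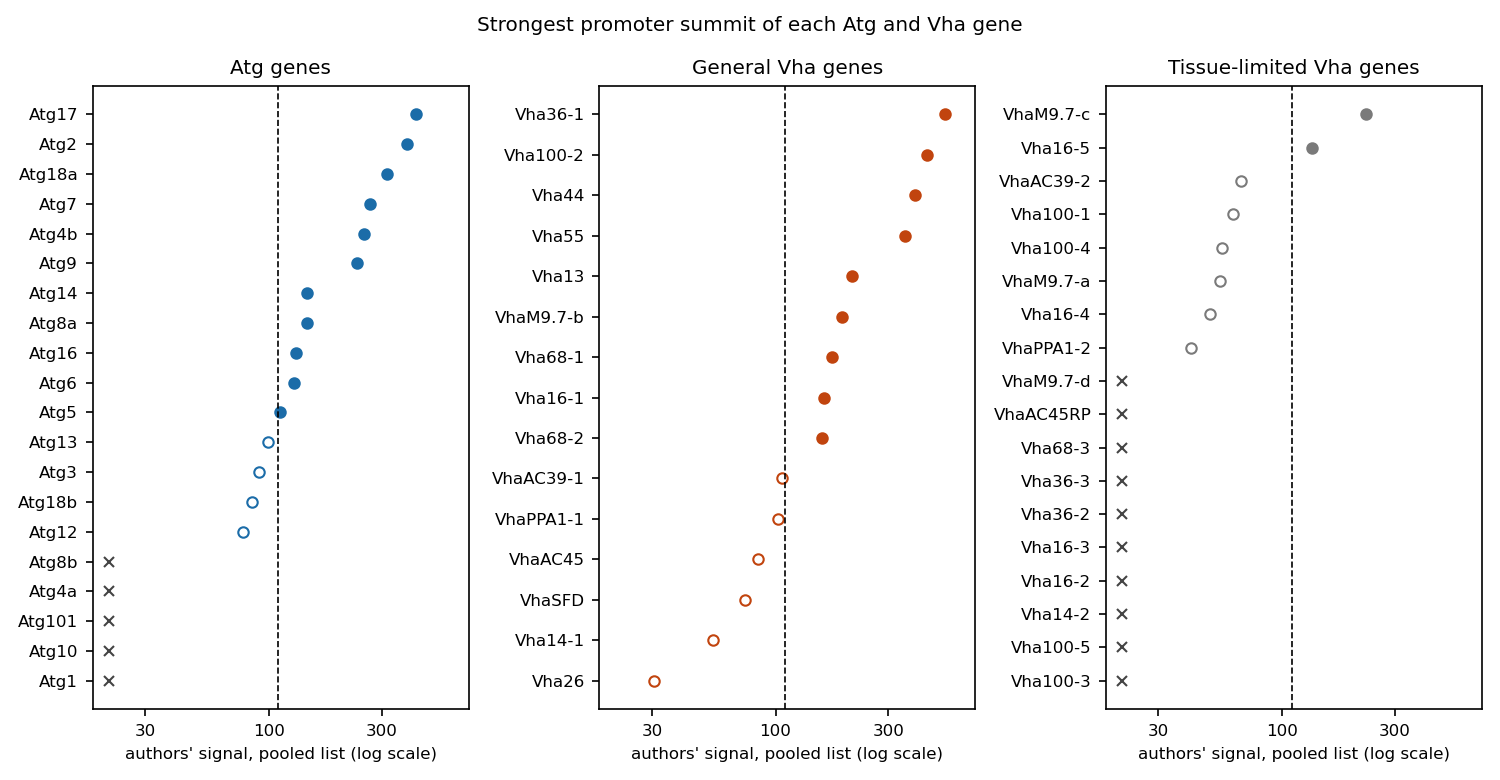
Authors' signal in the pooled list (log axis) of the strongest summit at most 500 bp from a start, for each Atg gene, general Vha gene and tissue-limited Vha gene. Filled points are in the thresholded set, open points are in the pooled list only, crosses at the left edge are genes with no pooled summit, and the dashed line is the lowest thresholded signal, 109.7. Vha36-1 stood highest with 518, and 10 of the 18 tissue-limited genes had no pooled summit.

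Autophagy starts with the Atg1 kinase complex, and of its 4 members Atg17 alone had a promoter region. Atg17, the scaffold of the complex and the relative of mammalian FIP200, had the strongest one of the Atg genes. Its signal was 419.8, at rank 241 of the thresholded set, rank 228 in replicate 2 and rank 251 in replicate 3. The kinase gene Atg1 had no summit near a start in the pooled list. Replicate 2 listed a weak one there at rank 21033, and 2 thresholded regions lay inside the gene, the stronger (signal 174) 6196 bp from the start. Atg13, the regulatory subunit that TOR phosphorylates, stayed under the threshold with a signal of 98.8. It was at rank 8955 in replicate 2 and 2345 in replicate 3, so it was top-ranked in the latter alone. Atg101, its binding partner, had no summit in any list.

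Both Atg genes of the lipid kinase complex had a region, and both regions were weak and differed between replicates. Atg6, the fly Beclin, had a signal of 128, at rank 1957 in replicate 2 and rank 7973 in replicate 3. Atg14, which directs the complex to the autophagosome, had a signal of 146, at rank 1423 and rank 9092. Each was top-ranked in replicate 2 and fell outside the top-ranked regions in replicate 3.

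The genes that supply membrane and lipid were bound in 3 of 4 cases, at signals above those of the lipid kinase genes. Atg2, the lipid transfer protein that bridges to the endoplasmic reticulum, had a signal of 384 and ranks of 316 and 325 in replicates 2 and 3. It also had a second thresholded summit, of signal 197, 72 bp upstream of its start. Atg18a, a lipid-binding partner of Atg2, had a signal of 315 and ranks of 446 and 594. Atg9, the membrane protein of the vesicles that seed the autophagosome, had a signal of 236 and ranks of 983 and 989. All of them were top-ranked in both replicates. Atg18b, the paralogue of Atg18a, was listed only below the threshold with a signal of 85.0 and ranks of 6015 and 5877.

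The conjugation enzymes were divided. In the Atg12 branch, Atg5 and Atg16 had a region, while Atg12 was under the threshold and Atg10 had no summit in any list. Atg16, which brings the conjugate to the membrane, had a signal of 130.3 and ranks of 3071 and 1885. Atg5, the acceptor of Atg12, had the lowest signal of the bound members, 111, with rank 5905 in replicate 2 and rank 2044 in replicate 3. Atg12 itself, the ubiquitin-like modifier, had a pooled signal of 78.0 and its ranks were far apart, 14879 in replicate 2 and 3521 in replicate 3.

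In the Atg8 branch 3 of 6 genes had a region. Atg7, the activating enzyme that serves both branches, had a signal of 267 and ranks of 713 and 652. Atg4b, a protease that trims Atg8, had a signal of 253 and ranks of 1035 and 588. Atg8a, the main Atg8 of the fly, had a signal of 145 and ranks of 1491 and 2525. The paralogues Atg4a and Atg8b had no summit in any list, so in both pairs 1 copy was bound and the other was not listed. Atg3, the conjugating enzyme, was under the threshold with a signal of 91.2 and ranks of 6088 and 3966.

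Among the general V1 genes of the pump, 6 of 9 had a region, with a median signal of 282. Vha36-1, subunit D of the rotor shaft, was the strongest of all 53 genes. Its region (chr2R:15541254-15541504) had a signal of 518 at thresholded rank 128, with rank 94 in replicate 2 and rank 241 in replicate 3. Vha44, subunit C, which takes part in the reversible joining of the sectors, had a signal of 391 and ranks of 288 and 286. The Vha44 region lies at a start that the annotation does not mark as canonical. Vha55, the B subunit, had a signal of 354 and ranks of 378 and 413. All of these were top-ranked in both replicates.

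The remaining V1 genes were weaker. Vha13, subunit G of the stalk, had a signal of 209.6 and ranks of 1214 and 1342. The A subunit, which hydrolyses ATP, has 2 general genes: Vha68-1 had a signal of 173 and ranks of 1883 and 1642, and Vha68-2 a signal of 157 and ranks of 1846 and 2461. The general genes without a region were Vha14-1 (subunit F, pooled signal 54.3), Vha26 (subunit E, 30.6) and VhaSFD (subunit H, 74.0). Vha26 was near the foot of the pooled list, at rank 28187, and no replicate listed it. Vha14-1 and VhaSFD had a thresholded summit outside the limit, at 843 bp and 640 bp.

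Of the 6 general genes for Vo and its accessory protein, 3 had a region. Vha100-2, the large a subunit that forms the proton path, had a signal of 435 and ranks of 206 and 249. VhaM9.7-b, subunit e, had a signal of 191 and ranks of 1669 and 1048, and a weaker second summit 85 bp upstream of its start. Vha16-1, which encodes the c subunit of the rotating ring, had a signal of 159.8 at the promoter and ranks of 1937 and 1220. This promoter region, too, lies at a start not marked as canonical. The gene body of Vha16-1 held 2 further thresholded regions, the stronger with a signal of 266, above that of the promoter region. It lay 1663 bp from the nearer of the gene's 2 start sites, which is not the start at the promoter region. VhaAC39-1 (subunit d), VhaPPA1-1 (subunit c″) and VhaAC45 (the accessory protein) were below the threshold with signals of 106, 102 and 84.4.

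The paralogues used in limited tissues were seldom bound. None of the 4 V1 genes of this class had a pooled summit, and 2 of the 14 Vo and accessory genes had a thresholded region. VhaM9.7-c, an e subunit, had a signal of 226 with rank 710 in replicate 2 and rank 2106 in replicate 3, and its summit also lay in introns of CG18675 and Teh2. Vha16-5, a c subunit, had a signal of 134, with rank 1966 in replicate 2 and rank 5003 in replicate 3. Below the threshold, VhaAC39-2 had the highest pooled signal, 66.7, followed by Vha100-1, Vha100-4, VhaM9.7-a, Vha16-4 and VhaPPA1-2, down to 41.2. Vha100-5 and Vha36-2 were listed in replicate 3 only, at ranks 23863 and 27808. The other 8 (Vha100-3, Vha14-2, Vha16-2, Vha16-3, Vha36-3, Vha68-3, VhaAC45RP and VhaM9.7-d) had no summit in any list. Subunit by subunit, the a family had a region at its general gene Vha100-2 and at 0 of 4 paralogues, the A family at 2 of 2 and 0 of 1, and the D family at 1 of 1 and 0 of 2. The c family had 1 of 1 and 1 of 4, the e family 1 of 1 and 1 of 3, and subunits c″, d and F had none in either class.

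**Figure D2:**
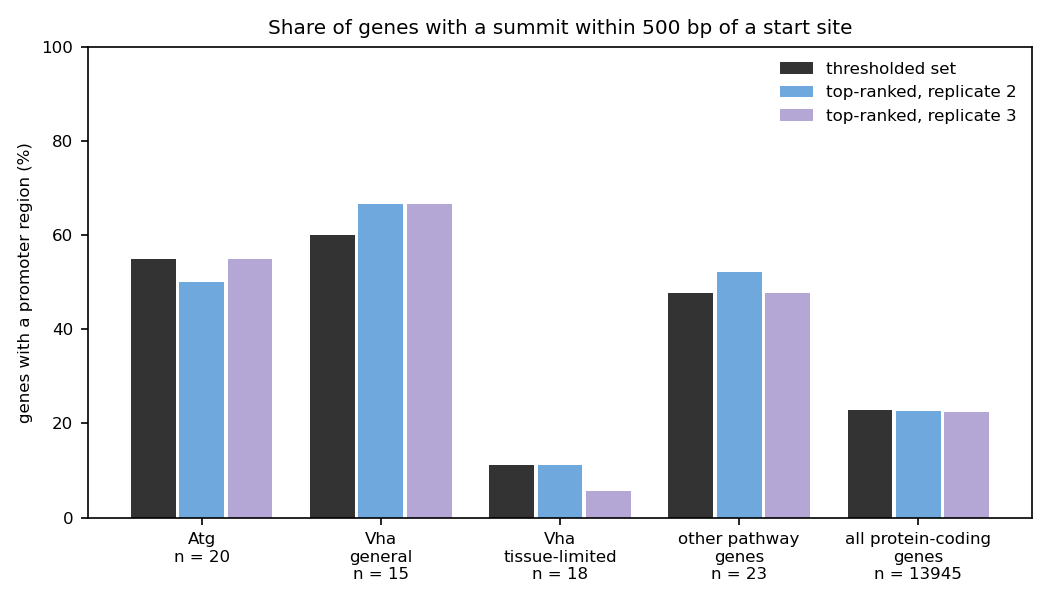
Percentage of genes having a summit at most 500 bp from a start, in the thresholded set and among the top-ranked regions of replicate 2 and of replicate 3, for the Atg genes, both Vha classes, other genes of the pathways and all protein-coding genes; n under each name counts genes. Each bar is 1 share with no error bar: Atg and general Vha genes stood at 50% to 66.7% in each list, and tissue-limited Vha genes at 5.56% to 11.1%.

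The split between the classes was also present in each replicate list, from which the thresholded set was made. In replicate 2, 10 of 20 Atg genes, 10 of 15 general Vha genes and 2 of 18 tissue-limited Vha genes had a top-ranked summit at a start, beside 22.6% of all protein-coding genes. In replicate 3 the numbers were 11, 10 and 1, beside 22.4% of all genes. In both replicates at once they were 8, 9 and 1, beside 18.5% of all genes. By region, 17 of the 22 strongest member regions overlapped a top-ranked region in both replicates (77.3%), and of all thresholded regions that were the strongest at a gene's start 1750 of 2225 did (78.7%). The 5 others were those of Atg14, Atg6, Atg8a and Vha16-5, which overlapped a top-ranked region only in replicate 2, and that of Atg5, which did so only in replicate 3. At Atg8a the region of replicate 3 that overlapped the thresholded one had rank 4592, and the summit at rank 2525 lay at another of its start sites. The authors' q value was at its highest for 20 of the 22 regions (90.9%), Atg5 and Atg6 being the exceptions, beside 82.2% of all genes with a region. With 2 replicates and no depth, it cannot be told which list is nearer to the true order at these genes.

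**Figure D3:**
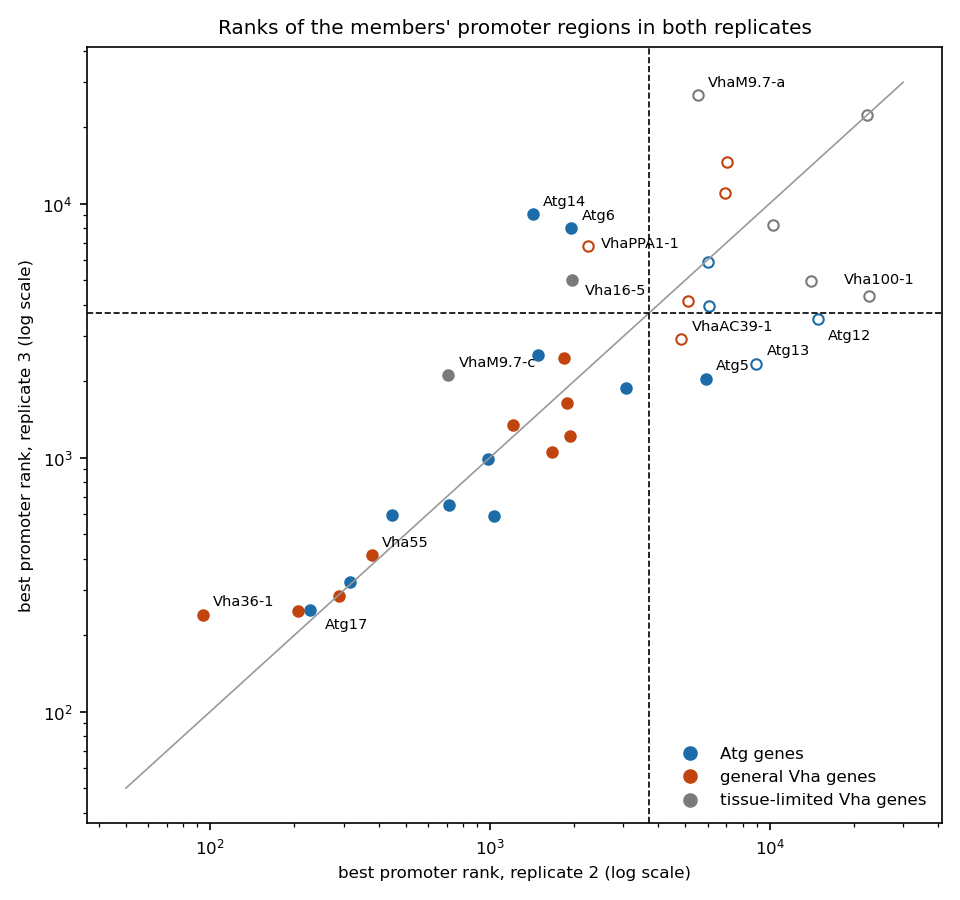
Best rank of a summit at most 500 bp from a start in replicate 2 (x axis) and in replicate 3 (y axis), both log scales, for the members listed in both replicates. Filled points have a thresholded region and open points do not, dashed lines mark rank 3707, and the diagonal marks equal rank. Strong members such as Vha36-1, Atg17 and Vha55 lay near the lower left, while Atg14 and Atg6 were far above the diagonal.

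The set depends on a threshold of signal and on one of distance. The members just inside on signal were Atg16 with 130.3, Atg6 with 128 and Atg5 with 111, and those just outside were VhaAC39-1 with 106, VhaPPA1-1 with 102 and Atg13 with 98.8. Thus Atg5 and VhaAC39-1, on opposite sides, differed little. Distance was judged by the nearest thresholded summit of each member. Atg16 (392 bp), Atg5 (315 bp) and Vha100-2 (300 bp) were the farthest inside. VhaSFD (640 bp), Vha14-1 (843 bp) and VhaAC39-2 (1641 bp) were the nearest outside.

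Summits lay mostly just upstream of the nearest start site of the gene. This was so at 21 of the 22 members (95.5%), with Atg18a the exception, and at 83.4% of all 3195 genes with a region. The median position was 95.5 bp upstream at the members and 98 bp upstream over all genes, and 11 of 22 member summits (50%) were within 100 bp of the start, beside 45.4% of all. The position of the summit relative to the start was thus much the same at the members as elsewhere.

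Many of these promoters were shared with another gene. At 17 of the 22 members (77.3%) the strongest region was also within 500 bp of the start of another coding gene, always on the opposite strand, and over all genes with a region 59.6% had another coding gene in reach. This applied to 10 of 11 Atg genes and 7 of 11 Vha genes. For the strongest region alone, the member was the nearest coding gene in 11 of 22 cases (50%), beside 71.3% over all genes. The counts that follow take in weaker regions too, and by their second summits Atg2 and VhaM9.7-b were also nearest. With each region given only to its nearest coding gene, 6 of 20 Atg genes (30%) and 7 of 33 Vha genes (21.2%) had one, beside 17% of all protein-coding genes, so the Vha share was then near that of all genes. Such a region cannot be given to 1 gene of the pair, and the partners were varied. Atg6 starts 1 bp from Pisd, which encodes an enzyme making phosphatidylethanolamine, the lipid to which Atg8 is attached. Vha68-1 shares its region with mTor, the gene of the TOR kinase, whose start is 373 bp away, with the summit 86 bp from Vha68-1 and 287 bp from mTor. Vha55 faces Snx3, a sorting nexin, at 202 bp, Vha100-2 overlaps Vti1b, a SNARE, and Vha44 faces Hmgs, an enzyme of the mevalonate pathway, at 123 bp. Atg18a faces the nuclear receptor gene ERR at 186 bp, and Atg7 faces Sec6, a subunit of the exocyst, at 205 bp. At the strongest member of each family the summit was nearer to the partner. It lay 21 bp from CG8187 and 51 bp from Vha36-1, and 131 bp from Xe7 and 248 bp from Atg17. At Vha44 it lay 18 bp from Hmgs and 105 bp from Vha44. The other partners were Prtl99C, CG12093, Hibch, Dok, BTBD9, CG7747, CG12299 and COX8.

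**Figure D4:**
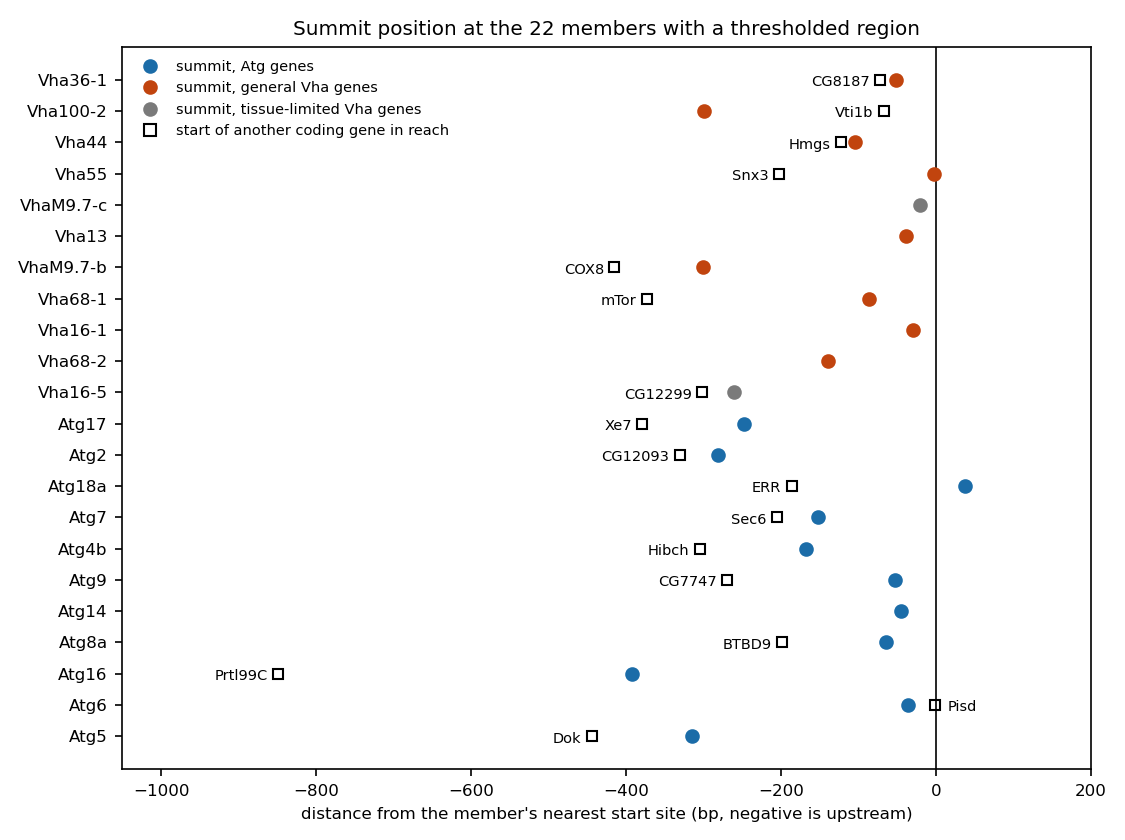
Position of the strongest thresholded summit (filled circles) relative to the member's nearest start site in bp, negative upstream, for the 22 members with a region, with open squares at the start of another coding gene within 500 bp of that summit. The summits are upstream at all but Atg18a, and squares are present at 17 of the 22 members.

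The arrangement of starts moved with the classes. A coding start on the opposite strand within 500 bp was annotated for 12 of 20 Atg genes (60%), 9 of 15 general Vha genes (60%) and 4 of 18 tissue-limited Vha genes (22.2%), beside 27.8% of all protein-coding genes. Over all genes, 47.3% of those with such a neighbour had a region, and 13.5% of those without. With a neighbour, a region was present at 9 of 12 Atg genes, 6 of 9 general Vha genes and 1 of 4 tissue-limited genes. Without one, it was present at 2 of 8, 3 of 6 and 1 of 14. The part of this arrangement in the difference between the classes was not tested.

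Regions away from the start were found in 7 members. The strongest was in Atg7, where a region of signal 732 at thresholded rank 63 lay 3492 bp from the Atg7 start, at the start of CG5335, and was above the Atg7 promoter region. Atg18b held a region of signal 141 at the small nuclear RNA gene snRNA:U4:39B, and Vha13 one of signal 150.2 at the start of subdued. Those in Atg16 and Atg17 had signals of 114.7 and 210.4. A region inside a member is therefore in some cases the promoter of another gene.

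Forkhead factors bind a core that can be spelled TAAACA, and it was searched on both strands. The letter-reversed word ACAAAT was counted beside it. That word can share letters with the core and may itself be read as a looser forkhead spelling, so it is not a clean control. Like shares of the core and the reversed word therefore decide nothing about forkhead sites. Within 50 bp of the summit the core was present at 2 of 22 members (9.09%), Atg6 and VhaM9.7-b, and at 15.1% of the 2225 distinct regions at coding starts. The reversed word was present at 1 member, Atg17, and at 15.8% of the regions. Within 100 bp the core and the reversed word were each present at 6 members (27.3%), beside 27.8% and 28.9% of the regions. With 22 windows, 1 match is 4.55% of them, and no test was made of these shares.

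Other words were searched because of what is known of these genes. CACGTG, the E-box that the MiT/TFE factor Mitf recognises at fly pump genes, was at none of the 22 summits within 50 bp, beside 1.26% of the regions, and within 100 bp it was at 2 Vha summits (9.09% of the 22), beside 3.19% of the regions. TATCGATA, the DNA replication-related element of many fly housekeeping promoters, was at none within 50 bp, beside 5.93%. Within 100 bp it was at 1 of the 22 summits (4.55%), beside 10.1% of the regions. In the 300 bases from 250 before to 50 after the start, it was found at 6 of 20 Atg genes (30%), 2 of 33 Vha genes (6.06%) and 8.94% of all protein-coding genes. Of these Atg genes, Atg14, Atg17 and Atg7 had a region, and Atg12, Atg13 and Atg3 did not. The E-box was in that window at 1 of 20 Atg genes (5%) and 4.26% of all protein-coding genes. Among Vha genes it was there at 0 of 15 general and 2 of 18 tissue-limited ones (11.1%). The forkhead core was in that window at 10 Atg genes (50%), 9 Vha genes (27.3%) and 32.5% of all, and the reversed word at 50%, 42.4% and 35.7%. By class, the core was at 3 of 15 general Vha genes (20%) and 6 of 18 tissue-limited ones (33.3%). The reversed word was at 40% and 44.4% of these. Of the Atg genes with the core, Atg4b, Atg5, Atg6, Atg7 and Atg9 had a region. Atg1, Atg101, Atg12, Atg13 and Atg18b had the core without a region. The base composition also differed between the families. The GC content of the 101 bases at the summit had a median of 34.7% at the Atg genes, with a range of 23.8% to 47.5%, and a median of 50.5% at the Vha genes, with a range of 27.7% to 63.4%, beside 38.6% over all regions.

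A further 23 genes act in the same pathways under other symbols, and 11 of them (47.8%) had a region, beside 22.9% of all protein-coding genes. Their median signal was 173. Snap29, a SNARE of the fusion of autophagosome and lysosome, had the strongest with 263, and Epg5, a tether of that fusion, followed with 236. ATP6AP2, an accessory protein of the pump, had a signal of 206, and Uvrag, a partner of Atg6, 194. CtsL1, the cathepsin L gene, had 178, RagA-B, a GTPase that recruits TOR to the lysosome, 167, and bchs, an adaptor of selective autophagy, 165. Rubicon, Rbcn-3A and Vps15 had the weakest, between 121 and 135, and the region of mTor is that shared with Vha68-1. Of the 12 without a region, cathD, with a pooled signal of 108, Mitf with 101 and Rheb with 98.7 stood highest. The rest were lower, from Syx17 with 75.9 and Vamp7 with 72.45 down to Pi3K59F with 30.6. Pi3K59F had no summit in either replicate list. Of these 12, RagC-D had no pooled summit. The pathways around the Atg and Vha genes were thus bound in part, as the families themselves were.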

How the data were processed

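Regions bound by GFP-tagged Crg-1 were taken from the lists that the authors deposited for 2 replicates. Per the deposited descriptions, each replicate list was called against 1 shared control alignment, and irreproducible discovery rate (IDR) analysis gave the thresholded set. It equals the 3707 strongest pooled regions by signal. The deposited signal is in the authors' own units and served to rank regions within a list. The deposited -log10 q value was used only to count regions at its highest value, and no p-value is given in the lists. Read depth, aligner and peak caller were not given in the sources used here.

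Coordinates are on dm6 and count from 1. Lists on dm3 were not used. Summits were assigned to protein-coding genes of Ensembl release 115 (BDGP 6) within 500 bp of any annotated start site with Python 3.11.15, and the assignment was tested on simulated data. Sequences came from RefSeq Release 6 of the genome. The members, the general and tissue-limited classes and the list of other pathway genes were chosen with earlier results of these data known, the classes and the list from textbook knowledge. All 53 members were accounted for, and each with a region is named. No hypothesis test was made: there is 1 group, genes with a common region count the same binding again, and replicates give only 2 ranks. Whether the replicates came from separate cultures of flies is not stated beyond their biosample labels. Alternatives covered the promoter distance, the start sites, the gene assignment, the signal threshold, each replicate alone and the motif window. Sequences on 1 chromosome arm are not reported here.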

Additional observations from a re-analysis of the deposited data

How the results depend on the processing

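No paired analysis was possible because the samples form 1 group. The counts of genes with a region, 11 Atg, 11 Vha and 9 general Vha genes, stayed within 1.5 times of these values under most alternatives. The count of 2 tissue-limited Vha genes did not, and ranged from 1 to 8. With a limit of 250 bp, or with regions of at least the median signal, 1 tissue-limited gene remained counted, and with each region given to its nearest coding gene only, also 1. Nearest-gene assignment gave 6 Atg genes (30%) and 7 Vha genes (21.2%), beside 17% of all protein-coding genes. Of the general Vha genes, 6 of 15 (40%) kept a region under it. The median signal as a minimum gave 6 Atg genes (30%), beside 13.7% of all. The nearest-gene rule dropped Atg17, Atg4b, Atg5, Atg6, Atg7, Vha100-2, Vha16-5, Vha36-1 and Vha44, all at shared promoters. When only the start marked canonical in the annotation was used, Vha16-1 and Vha44 were lost. That left 7 of 15 general Vha genes (46.7%), beside 20.5% of all protein-coding genes. The pooled list raised the counts to 23 Vha, 15 general and 8 tissue-limited genes. Using the top-ranked regions of a single replicate gave 10 to 11 Atg, 11 to 12 Vha, 10 to 10 general and 1 to 2 tissue-limited genes. Without replicate 2, Atg14, Atg6 and Vha16-5 were lost and Atg12, Atg13 and VhaAC39-1 gained. Without replicate 3, Atg5 was lost and VhaPPA1-1 gained. Among motifs, the forkhead core rose from 2 members to 6 within 100 bp and 9 in the 300-base promoter window. The reversed word rose from 1 to 6 and 8, and the replication-related element from 0 to 1 and 4. The E-box went from 0 to 2 within 100 bp and was at 0 in the promoter window. These windows are wider by construction. Read depth is unknown, so weak regions cannot be told from absent ones by it.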
